A study of Mus musculus with 11 samples.

Results

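The voltage-gated and potassium channel genes were taken by symbol: Kcn followed by letters and a number, Scn followed by a number and the letter a, and Cacna1 followed by a letter. They comprise the pore-forming subunits of potassium, sodium and calcium channels together with the accessory subunits named Kcnip, Kcnab, Kcnmb and Kcne. The RNA-seq table listed 111 of them among 48440 genes, and the single-cell libraries listed 112 among 32285. The gene that differed was Scn2a, which the RNA-seq table carries under the older symbol Scn2a1, so it is given there by itself. No measured value was used to choose the genes.

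Syncrip is an RNA-binding protein, and the study asked what its loss changes in the developing mouse cortex at E14.5. In the conditional knockout (cKO) mice, of C57BL/6 background, exons of Syncrip flanked by loxP sites are removed by Emx1-Cre, a Cre expressed in dorsal forebrain progenitors and the cells they produce, so ventrally derived neurons, microglia and vessel cells keep the gene. RNA-seq was done on neural progenitor cell (NPC) cultures grown from the tissue around the lateral ventricles with EGF and bFGF, 3 WT and 3 cKO, and scRNA-seq on the dissected dorsal cortex of 1 WT and 1 cKO embryo of the same litter. Whether the WT animals carried loxP or Cre alleles is not given in the sources used here, and neither is whether each culture came from a separate animal. Counts of Y-linked genes were 8899, 5903 and 1 in the WT and 9232, 0 and 0 in the cKO cultures. The 3 cultures of a genotype thus did not all come from the same animal, and the sexes were uneven between genotypes. The p-values measure the spread between these cultures, which may be technical in part. Counts over the whole Syncrip gene are no check of the genotype labels, since the deletion takes only some of its exons: in CPM (read counts scaled to library size), Syncrip read 77.9, 79.8 and 79.9 in WT and 90.3, 88.7 and 81.5 in cKO. The paper reports that RNA-seq tracks of cKO neurospheres from E14.5 cortex lacked the flanked exons, and that the knockout was also seen in protein.

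Ion channels set the electrical state of a cell. Potassium channels hold the membrane at a negative resting potential and end each spike, voltage-gated sodium channels start spikes, and voltage-gated calcium channels turn depolarization into calcium entry. Cortical progenitors are known for a resting potential held by potassium conductances, and newborn neurons add voltage-gated sodium, calcium and potassium channels as they become excitable.

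What makes a channel subunit pass potassium is written in its selectivity filter, a short loop at the narrowest point of the pore. A threonine, a hydrophobic residue, a glycine, a tyrosine or phenylalanine and a glycine make up this signature. The bases shared by their codons were searched in reading frame on the coding strand of the longest annotated coding sequence of each gene (GENCODE M21 on GRCm38), as ACNNTNGGNTANGGN and as ACNNTNGGNTTNGGN, which cannot match at the same place. At least 1 of these motifs was present in 64 of 77 Kcn genes outside the accessory families (83.1%), against 129 of 21851 protein-coding genes (0.59%). It was in 0 of 15 accessory subunits, 0 of 10 sodium channel alpha subunits and 0 of 10 calcium channel alpha1 subunits. The absence of a match says only that these letters are not in that coding sequence: the 13 Kcn genes without one were Kcnh1, Kcnh2, Kcnh3, Kcnh4, Kcnh6, Kcnh7, Kcnh8, Kcnj14, Kcnk1, Kcnk7, Kcnn1, Kcnn2 and Kcnn3. The stretches printed here, 27 bases of coding exon each with the motif in capitals, belong to genes whose levels the results turn on. They lie in GRCm38 at chr1:15710040-15710066 on the + strand (Kcnb2), chr10:112456223-112456249 on the + strand (Kcnc2), chr15:66023725-66023751 on the - strand (Kcnq3), chr2:55437621-55437647 on the + strand (Kcnj3), chr1:172369296-172369322 on the + strand (Kcnj10) and chr1:189256575-189256601 on the - strand (Kcnk2).
Kcnb2: atgaccACTGTGGGCTACGGTgacatt
Kcnc2: atgactACCTTAGGTTACGGGgatatg
Kcnq3: ctggccACCATTGGTTATGGAgacaag
Kcnj3: gaggccACCATCGGCTATGGCtaccgc
Kcnj10: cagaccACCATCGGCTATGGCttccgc
Kcnk2: ctgacgACCATTGGATTTGGAgactac
Kcnk2, whose subunit carries a pair of filters and forms leak channels, is shown with the filter that lies within 1 exon, and it holds the motif with TT where the other genes printed here hold TA. Kcnh5, Kcnj8 and Kcnj11, which are not printed, also hold the TT form.

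The single-cell libraries held 100172392 (WT) and 111313526 (cKO) UMIs, 8214 and 9560 cells passed the filters, and 22 barcodes occurred in both. Clusters were named from marker genes, with the channel genes and their partner genes left out of the clustering, and each class was "like" a cell type only by those markers. Levels are CPM of all UMIs of a class, summed over the cells of 1 embryo, with exact Poisson 95% intervals that cover counting error only. With clusters drawn from the same cells and 1 embryo per genotype there is no test, so the differences in the cortex are descriptions.

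Channel genes as a group took a larger share of the RNA along the path from progenitor to neuron. Their summed level was 1467 CPM in the WT and 1518 CPM in the cKO embryo in apical progenitor (AP)-like cells (951 and 1309 cells). In intermediate progenitor (IP)-like cells (719 and 752 cells) it was 2285 and 2226 CPM. In migrating-neuron-like cells (1919 and 2134 cells) it was 3489 and 3714 CPM, and in immature-neuron-like cells (1580 and 1868 cells) it was 5198 and 4863 CPM. The immature-neuron-like level was thus higher than the AP-like level by 1.82 on the log2 scale in the WT and by 1.68 in the cKO embryo. Cells like those of the ganglionic eminence (GE), the ventral source of GABAergic neurons (1192 and 1641 cells), read 3510 and 3358 CPM. Cajal-Retzius-like cells, the early Reln-expressing neurons of the surface (63 and 111 cells), had the highest sums of the named classes, 6195 and 5676 CPM. A cluster led by Cdh12 (825 and 661 cells) that was left without a name read 4105 and 4096 CPM. Another pair of clusters of low UMI count also stayed unnamed and is not described. Red-blood-cell-like cells (54 and 55 cells), which should hold little channel mRNA and so give a view of free RNA, read 218 CPM in the WT and 546 CPM in the cKO embryo. Red blood cell markers took 780947 and 745434 CPM of that class, so its CPM understate channel RNA as a share of the other RNA there.

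Of the 68 channel genes with at least 200 UMIs over all cells, 43 (63.2%) were at least 2-fold higher in immature-neuron-like than in AP-like cells in both embryos, with intervals that left out 0, against 14.2% of the other 14221 genes, and 2 (2.94%) were at least 2-fold lower, against 19.6%. In GE-like cells 38 were higher (55.9% against 13.1% of the other genes) and 3 lower (4.41% against 13.0%). In migrating-neuron-like cells 33 were higher (48.5% against 11%) and 3 lower (4.41% against 17.0%). In Cajal-Retzius-like cells 30 were higher (44.1% against 12%) and 5 lower (7.35% against 11.5%). In IP-like cells 20 were higher (29.4% against 5.54%) and 5 lower (7.35% against 8.8%). The median log2 difference between IP-like and AP-like cells was 0.97 over the channel genes and -0.07 over the other genes in the WT embryo, and 0.70 and -0.07 in the cKO embryo. Channel genes are long: those compared here have a median span of 94.2 kb, against 24.7 kb for the 13522 compared genes with a known span, and long introns can add UMIs where intronic reads are counted. The part of gene span in these shares was not tested.

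**Figure D1:**
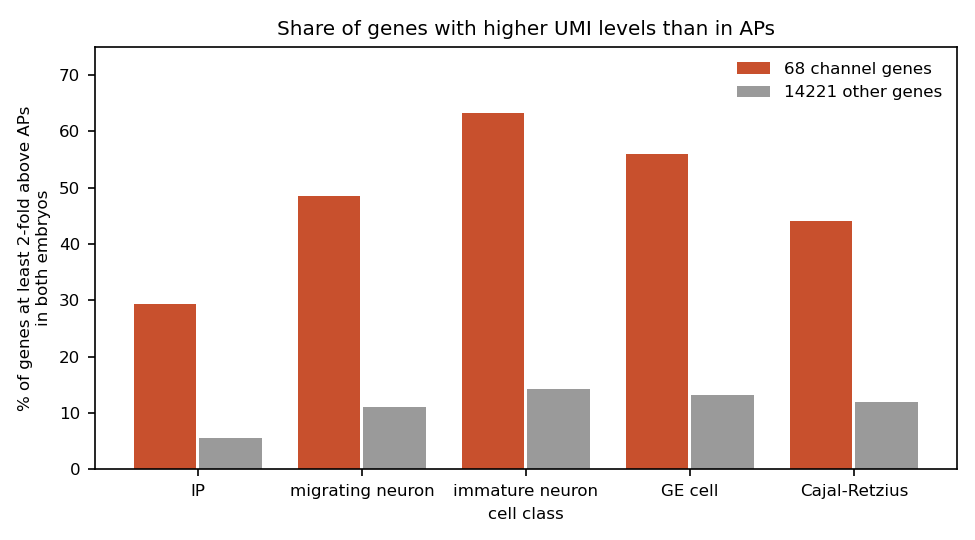
Share of genes, in percent, whose UMI level was at least 2-fold above that of AP-like cells in both embryos, for 5 classes, with 68 channel genes beside the other 14221 genes compared. The channel genes stand above the other genes in each of the 5 classes, from 29.4% in IP-like to 63.2% in immature-neuron-like cells.

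A few channel genes read more in progenitor-like than in immature-neuron-like cells, or peaked between them. Kcnj10, which encodes the inward rectifier Kir4.1 known from astrocytes, read 35.7 CPM (WT) and 24.3 CPM (cKO) in AP-like cells, 6.26 and 4.25 CPM in IP-like cells and 0.495 and 0.512 CPM in immature-neuron-like cells. It and Kcnk5, a leak channel at 4.05 and 5.64 CPM in AP-like cells, were the genes at least 2-fold lower in immature-neuron-like cells. Kcnk10, which encodes the mechanically and lipid gated leak channel TREK-2, read 170.0 CPM (162 to 178) in the WT and 155 CPM (147 to 162) in the cKO embryo in IP-like cells and 165 CPM (158 to 173) and 153 CPM (148 to 159) in AP-like cells. The IP-like and AP-like levels of Kcnk10 thus had overlapping intervals in both embryos, while immature-neuron-like cells read 107 and 92.0 CPM. Kcnip3, a calcium-binding partner of Kv4 channels, was highest in IP-like cells among named classes of at least 50 cells per embryo, at 61.0 and 76.2 CPM. Kcnh5, a voltage-gated potassium channel of the ether-a-go-go family, peaked in the transition: 12.5 and 15.9 CPM in AP-like, 67.9 and 71.0 CPM in IP-like, 73.0 and 85.8 CPM in migrating-neuron-like and 16.3 and 22.9 CPM in immature-neuron-like cells.

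Several voltage-gated potassium channels differed widely between classes. Kcnq3, which encodes a subunit of the M-current that limits repetitive firing, was higher at each step: 47.8 (WT) and 74.0 CPM (cKO) in AP-like cells, 125 and 157 CPM in IP-like cells, 534 and 627 CPM in migrating-neuron-like cells and 1167 and 1139 CPM in immature-neuron-like cells. Kcnb2, a delayed rectifier of the Kv2 family, was already at 568 and 474 CPM in IP-like cells, against 43.6 and 73.8 CPM in AP-like cells, and reached 935 and 1019.5 CPM in Cajal-Retzius-like cells. Kcnd2, which encodes the A-type channel Kv4.2, dipped instead in IP-like cells: it read 161 and 169.7 CPM in AP-like, 59.6 and 74.5 CPM in IP-like and 263 and 290.5 CPM in migrating-neuron-like cells. Kcna1, the axonal channel Kv1.1, read 0.545 and 1.001 CPM in AP-like, 1.67 and 2.04 CPM in GE-like and 28.2 and 33.6 CPM in immature-neuron-like cells.

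Sodium and calcium channels were mostly genes of the neurons. Among the sodium channels, Scn3a, the main embryonic form, read 8.03 and 12.1 CPM in AP-like cells, 112 and 132 CPM in migrating-neuron-like cells and 173 and 172 CPM in GE-like cells. Scn1a was highest in migrating-neuron-like cells among named classes of at least 50 cells per embryo, at 71.2 and 87.0 CPM. It was lower again in immature-neuron-like cells at 16.1 and 19.98 CPM. Scn2a, the form of young axons, ran the other way, with 9.68 and 16.3 CPM in migrating-neuron-like and 53.2 and 40.9 CPM in immature-neuron-like cells. The widest step of a calcium channel was that of Cacna1e, the R-type channel, with 7.33 and 10.3 CPM in AP-like, 15.4 and 14.49 CPM in migrating-neuron-like and 304 and 281 CPM in immature-neuron-like cells. Within that class Cacna1e was uneven, with 567 and 489.7 CPM in the cluster led by Hs3st4 and Zfpm2 and 193 and 127 CPM in the cluster led by Slit3. Cacna1c and Cacna1d, the L-type channels, read 32.3 and 39.0 CPM and 11.7 and 16.2 CPM in AP-like cells and 351 and 339 CPM and 136 and 148 CPM in immature-neuron-like cells.

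Some genes marked one lineage. In GE-like cells Kcnc2, a Kv3 channel of fast-spiking interneurons, read 208 and 166 CPM, and Kcnmb2, a BK channel subunit, read 182 and 138 CPM, against 7.27 and 6.58 CPM for Kcnmb2 in immature-neuron-like cells. Kcnc2 and Kcnmb2 were highest in the larger of the GE-like clusters led by Nxph1 and Sst, at 422 and 344 CPM and at 406 and 283 CPM. Kcnh8 was also highest in GE-like cells among named classes of at least 50 cells per embryo, at 107 and 107 CPM. In Cajal-Retzius-like cells Kcnh7, a member of the erg family, read 1671 and 1551 CPM against 561 and 433 CPM in immature-neuron-like cells, and Kcnip4, a Kv4 partner, read 1102 and 499 CPM. Kcnj8, the pore of the vascular ATP-sensitive potassium channel, was a gene of the vessel wall. It read 788 and 767 CPM in 27 and 18 pericyte-like cells and 178 and 158 CPM in 24 and 33 endothelial-like cells, against at most 0.278 CPM in AP-like, IP-like, GE-like and immature-neuron-like cells. Pericyte markers summed to 2237 and 2096 CPM in endothelial-like cells, against 9826 and 8675 CPM in pericyte-like cells. The part of pericyte RNA in the endothelial-like Kcnj8 level was not tested. Kcnq1 was highest in endothelial-like cells, at 44.4 and 71.7 CPM. Of the named classes with at least 50 cells per embryo, which leaves out pericyte-, endothelial- and microglia-like cells, fibroblast-like cells had the highest Kcnk2, Kcnt2 and Cacna1g. The levels were 164 and 217 CPM, 169 and 120.1 CPM and 49.2 and 44.4 CPM. Of the 40 channel genes that reached 20 CPM in both embryos in a class of at least 50 cells, 34 were highest in the same class in both embryos, 10 of them in Cajal-Retzius-like and 8 in immature-neuron-like cells. Genes entered through a class where both embryos were high, which favours such agreement, and the share over other genes was not computed.

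**Figure D2:**
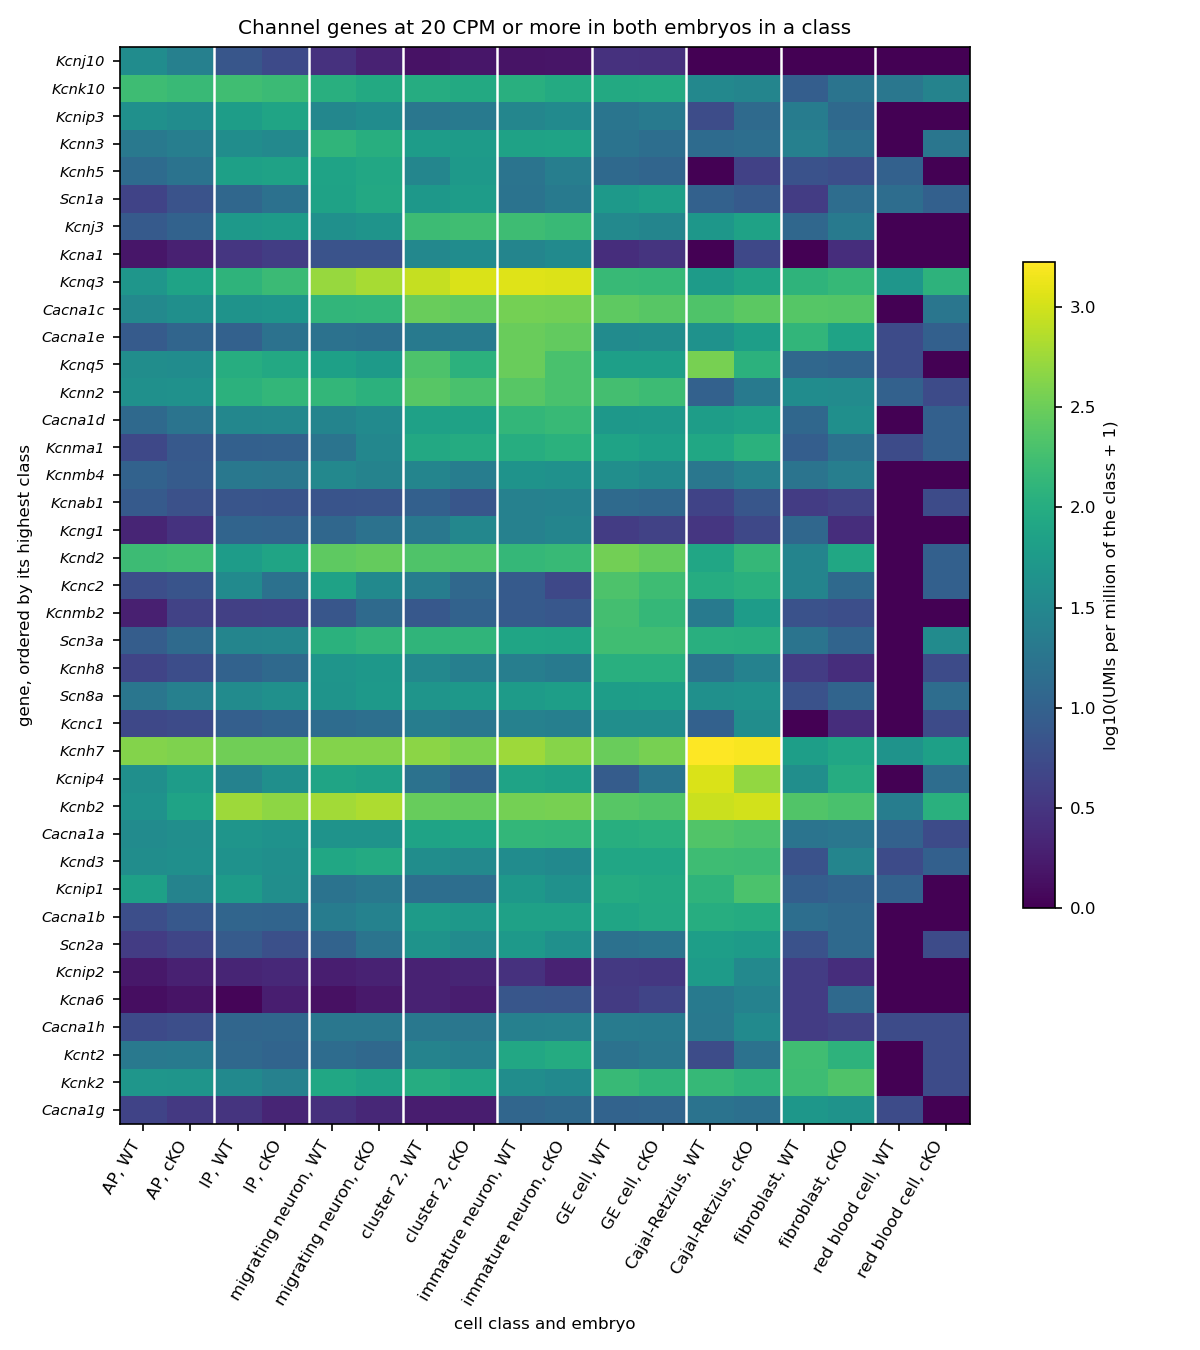
Level of 39 of the 40 channel genes that reached 20 CPM in both embryos in at least 1 class of 50 or more cells per embryo, as log10 of CPM plus 1, with the WT and the cKO embryo side by side for each class. Rows are ordered by the class with the highest level. Kcnj10 and Kcnk10 are bright in the progenitor columns, Kcnq3 brightens from AP-like to immature-neuron-like cells, and Kcnh7, Kcnip4 and Kcnb2 are brightest in Cajal-Retzius-like cells.

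From a list of 38 genes that work with these channels, Ank3, Scn3b, Rest and Cacnb2 are described by class. Directions over the whole list were not counted, so these genes do not stand for it. Ank3, the scaffold that holds sodium and Kcnq channels at the axon initial segment, read 56.8 and 80.4 CPM in AP-like and 1044 and 928 CPM in immature-neuron-like cells. Scn3b, a sodium channel beta subunit, read 3.12 and 2.90 CPM in AP-like and 46.5 and 39.6 CPM in immature-neuron-like cells. Rest, the repressor that keeps many neuronal channel genes silent outside neurons, ran opposite, with 58.2 and 57.9 CPM in AP-like, 6.16 and 6.98 CPM in IP-like and 11.7 and 15.04 CPM in immature-neuron-like cells. Cacnb2, a calcium channel beta subunit, also read more in AP-like cells, at 127 and 121 CPM, than in immature-neuron-like cells, at 25.8 and 33.1 CPM.

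In the NPC cultures, loss of Syncrip came with changes in both directions across the channel genes. Total counts per culture ran from 16962903 to 22708400. Of the 111 genes, 103 had at least 1 count and 71 passed the filter on low counts and were tested, and Benjamini-Hochberg adjustment was made over all 14432 genes tested by edgeR. At an adjusted p under 0.05, 36 channel genes were called (39.5% of all genes tested were called), of which 16 rose in cKO (19.7% of all genes) and 20 fell (19.8% of all genes). At a change of at least 2-fold, 3 rose (3.26% of all genes) and 11 fell (4.23% of all genes). The values of the 3 WT and the 3 cKO cultures did not overlap for 46 of the 71 (50.4% of all genes). The median log2 fold change was -0.06 over the channel genes and 0.00 over all genes. Of the 36 calls, 22 were made under each of 14 alternatives, 14 were lost in at least 1, and 0 changed sign. In such cultures fewer cells of a type and less RNA per cell cannot be told apart. Neuron markers moved the same way as the channel genes that fell: of 16 tested neuron markers 12 fell and 0 rose, and their sum ranged from 3123 to 3373 CPM over the WT cultures and from 2750.2 to 2857 CPM over the cKO cultures. Astrocyte markers fell in 7 and rose in 2 of 10 (sum 7968 to 8549 CPM against 5277 to 5979 CPM), and markers of the oligodendrocyte lineage fell in 5 and rose in 2 of 10 (sum 4883 to 5270 CPM against 3419 to 4039 CPM). The defining markers Tubb3, Nefl and Gfap were at 0 in all 6 cultures, but other listed genes cover their whole spans, so these zeros do not show absence. The part of these cell types in the channel results was not tested.

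**Figure D3:**
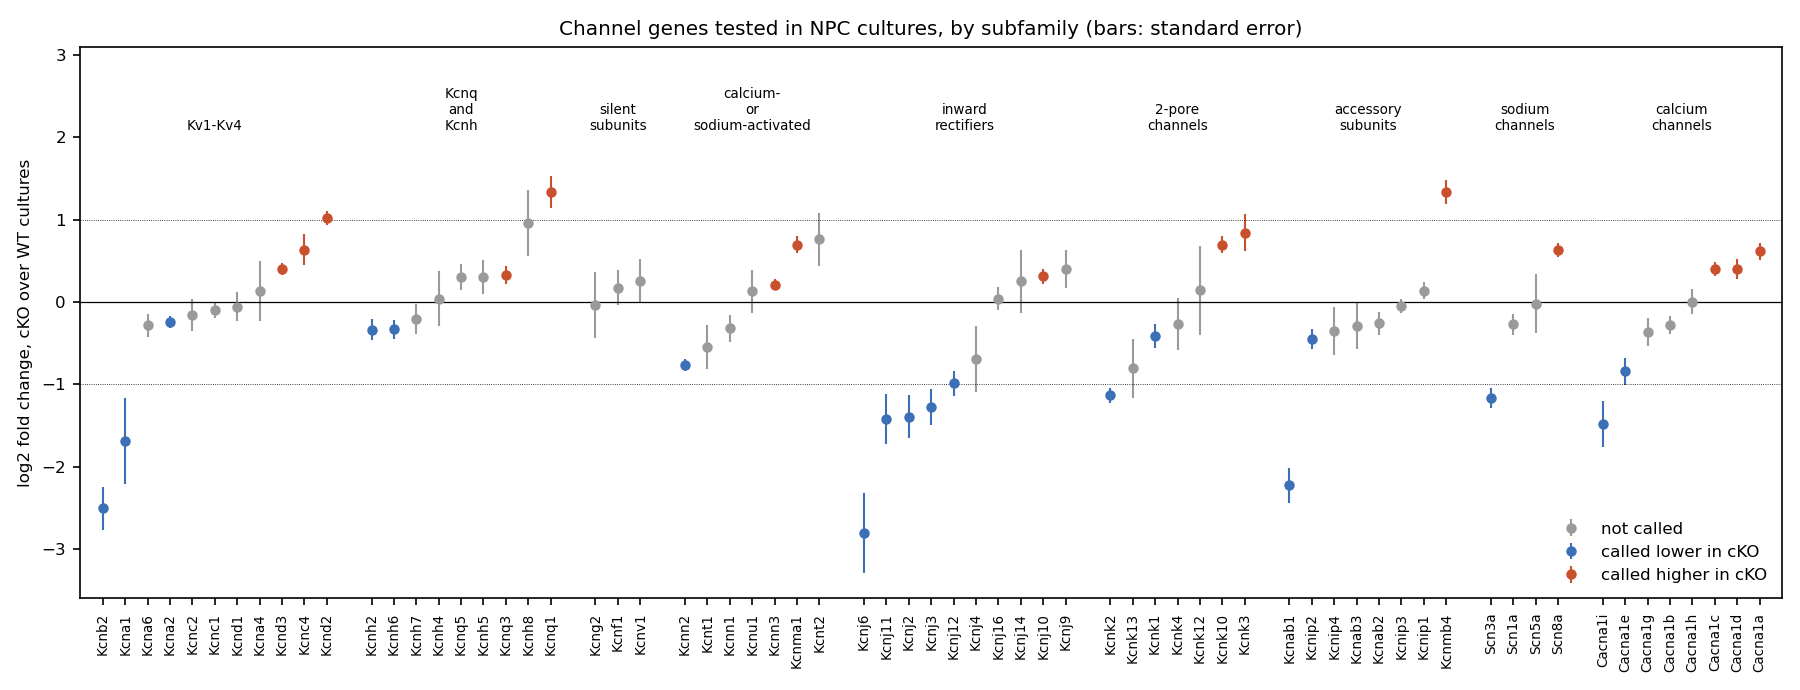
Log2 fold change of cKO over WT cultures for 67 of the 71 channel genes tested, grouped by subfamily, with bars of 1 standard error and dotted lines at a 2-fold change. Red points rose and blue points fell at an adjusted p under 0.05, and grey points were not called. Kcnj6, Kcnb2 and Kcnab1 lie lowest, and Kcnd2, Kcnq1 and Kcnmb4 lie above the upper line.

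Of the inward rectifiers, which pass potassium best near the resting potential, 5 of 10 tested fell (against 19.8% of all genes) and 1 rose (against 19.7%). Kcnj6, the G-protein-gated channel GIRK2, read 0.856, 1.73 and 2.23 CPM in the WT and 0.196, 0.291 and 0.193 CPM in the cKO cultures (log2 fold change -2.81, SE 0.49, adjusted p = 0.000496), a gene too low to be tested at a minimum of 1 CPM. Kcnj3, which encodes GIRK1 and pairs with it, read 5.81, 4.18 and 4.82 CPM against 2.35, 1.98 and 1.78 CPM (log2 fold change -1.28, SE 0.22, adjusted p = 0.000548). In both genes each cKO culture lay under every WT culture. Kcnj2, the strong rectifier Kir2.1, read 3.83, 3.12 and 3.70 CPM against 1.08, 1.28 and 1.69 CPM (-1.39, SE 0.26, adjusted p = 0.00079). Kcnj11, the pore of the neuronal ATP-sensitive channel, read 2.61, 4.34 and 6.20 CPM against 1.42, 1.81 and 1.69 CPM (-1.42, SE 0.30, adjusted p = 0.0023). The WT cultures of Kcnj11 were spread over more than 2-fold, yet the genotypes did not overlap. Kcnj12 was the fifth, at a log2 fold change of -0.99. The inward rectifier that rose was Kcnj10, with 214, 218 and 174 CPM in the WT and 255, 249.8 and 246 CPM in the cKO cultures (0.31, SE 0.09, adjusted p = 0.0141). The Kcnj10 call was lost when cKO culture 1 was left out (adjusted p = 0.0569).

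Among the Kv1 to Kv4 channels, 3 of 13 tested fell (23.1%, near the 19.8% of all genes) and 4 rose (30.8%, against 19.7%). Kcnb2 read 4.91, 4.34 and 5.49 CPM in the WT and 0.687, 1.11 and 0.820 CPM in the cKO cultures (log2 fold change -2.51, SE 0.26, adjusted p = 6.54e-06). Kcnd2 read 186, 169 and 157 CPM against 371, 348 and 321 CPM (1.02, SE 0.09, adjusted p = 1.07e-06). The lowest Kcnd2 value of a cKO culture was well above the highest of a WT culture. Kcnd3, of the same Kv4 family, also rose (0.40, SE 0.07, adjusted p = 0.000572), and so did the Kv3 gene Kcnc4 (0.64), whose values overlapped between the genotypes. Kcnc4 lost its call without WT culture 1 or 3 or cKO culture 1 or 2 (adjusted p up to 0.0597). Kcna1 read 1.08, 0.891 and 1.03 CPM against 0.638, 0.117 and 0.145 CPM (-1.69, SE 0.53, adjusted p = 0.0203). That call was lost when WT culture 2, cKO culture 2 or cKO culture 3 was left out (adjusted p up to 0.0964). Kcna2, at 375, 359.5 and 385 CPM against 313, 314 and 316 CPM, fell by a small amount (-0.25, SE 0.07, adjusted p = 0.0166), and lost its call without any of the cKO cultures (adjusted p up to 0.072).

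Of the Kcnq and Kcnh channels, 4 of 11 fell (36.4%, against 19.8% of all genes) and 2 rose (18.2%, against 19.7%). Kcnq1, known from epithelia and heart, read 5.45, 3.12 and 4.19 CPM in the WT and 9.96, 10.8 and 11.7 CPM in the cKO cultures (log2 fold change 1.34, SE 0.19, adjusted p = 0.00011). Its span is covered over 42.4% by other listed genes, Kcnq1ot1 among them. Of 5022 listed genes wholly covered on the opposite strand only, 5021 were at 0 in all cultures. Reads in shared stretches thus seem to have been left uncounted on either strand, so the Kcnq1 values would rest on the rest of its span. Kcnq3 rose slightly (18.1, 15.5 and 17.3 CPM against 21.2, 20.7 and 22.2 CPM, 0.33, SE 0.11, adjusted p = 0.0245). Kcnq3 lost its call without WT culture 2 or any of the cKO cultures (adjusted p up to 0.102). None of the 3 silent subunits tested was called by edgeR (Kcnf1 0.17, Kcnv1 0.25 and Kcng2 -0.04 on the log2 scale), and their adjusted p was at least 0.475.

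The leak and calcium-activated channels split. Kcnk2, which encodes the mechanosensitive leak channel TREK-1, read 237, 221 and 195 CPM in the WT and 109, 95.8 and 93.6 CPM in the cKO cultures (log2 fold change -1.13, SE 0.09, adjusted p = 5.75e-07). Its close relative Kcnk10 went the other way, from 18.0, 17.0 and 17.3 CPM to 30.8, 28.0 and 26.0 CPM (0.70, SE 0.10, adjusted p = 0.000136). Neither gene overlapped between the genotypes. Kcnma1, the pore of the BK channel, rose from 23.7, 22.8 and 20.9 CPM to 38.7, 38.4 and 32.1 CPM (0.69, SE 0.10, adjusted p = 0.00016). Its accessory subunit Kcnmb4 rose with it, from 6.71, 7.46 and 7.76 CPM to 20.3, 20.04 and 15.3 CPM (1.34, SE 0.15, adjusted p = 9.89e-06). The SK channel Kcnn2 fell, from 103, 100.3 and 102 CPM to 59.3, 63.0 and 57.4 CPM (-0.76, SE 0.08, adjusted p = 4.12e-06). Kcnab1, an accessory subunit of Kv1 channels, read 8.65, 6.57 and 9.64 CPM against 1.81, 1.75 and 1.74 CPM (-2.23, SE 0.21, adjusted p = 2.54e-06). Its span is covered over 81.1% by other listed genes, so its values too would rest on the uncovered rest.

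Both sodium channel calls were clear of overlap and opposite in sign. Scn3a read 43.4, 45.8 and 53.0 CPM in the WT and 17.6, 24.3 and 21.5 CPM in the cKO cultures (log2 fold change -1.17, SE 0.12, adjusted p = 7.03e-06), and Scn8a, the channel of mature nodes and axons, read 150.0, 147 and 171 CPM against 249, 246 and 230.5 CPM (0.63, SE 0.08, adjusted p = 4.07e-05). Scn2a1, the older name of Scn2a, fell too, from 23.1, 19.1 and 26.2 CPM to 11.5, 13.8 and 14.1 CPM (-0.80, SE 0.14, adjusted p = 0.000417). Of 8 calcium channels tested, 2 fell (25.0%, against 19.8% of all genes) and 3 rose (37.5%, against 19.7%). Cacna1i, a T-type channel, read 4.50, 6.35 and 5.98 CPM against 1.08, 2.62 and 2.36 CPM (-1.48, SE 0.28, adjusted p = 0.000978). Cacna1e fell from 21.4, 19.4 and 32.1 CPM to 15.3, 13.1 and 12.3 CPM (-0.84, SE 0.17, adjusted p = 0.00139). The P/Q-type Cacna1a rose from 58.4, 71.2 and 80.0 CPM to 102, 118 and 101 CPM (0.61, SE 0.11, adjusted p = 0.000471), and the L-type Cacna1c and Cacna1d each rose by 0.40, of which Cacna1d lost its call without WT culture 2 (adjusted p = 0.0939).

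**Figure D4:**
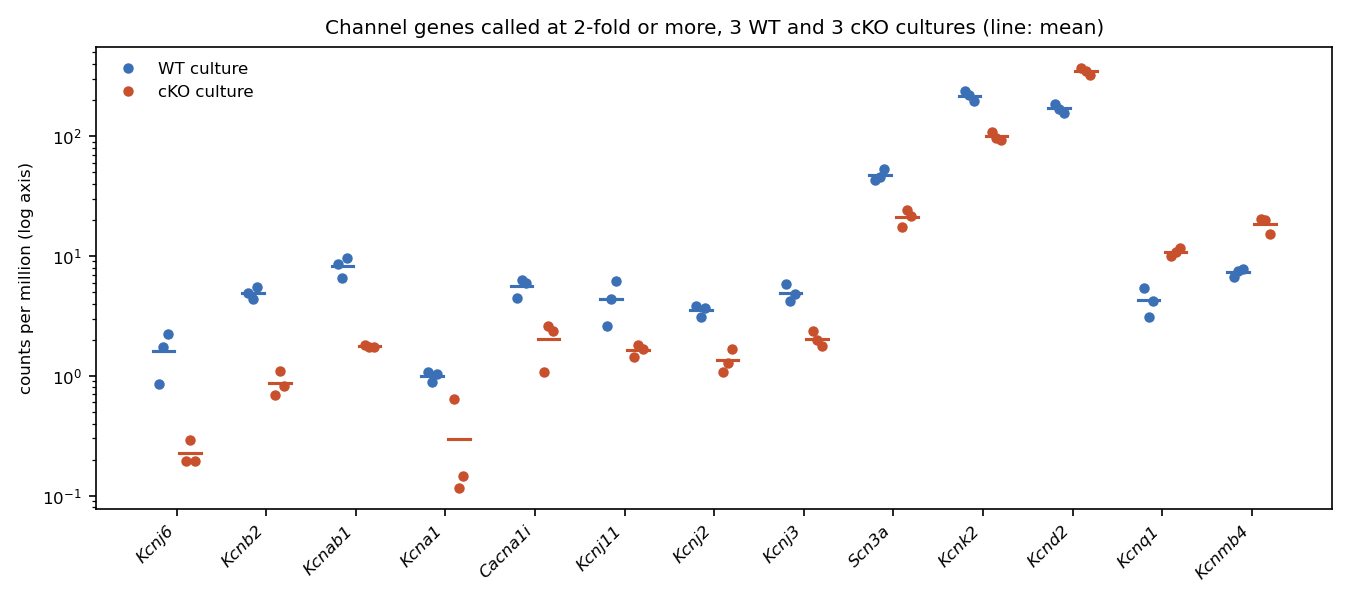
CPM, on a log axis, of 13 of the 14 channel genes called at 2-fold or more, in each of 3 WT (blue) and 3 cKO (red) cultures, with a line at the mean. For Kcnb2 the cKO cultures lie between 0.687 and 1.11 CPM, under the lowest WT culture at 4.34 CPM, and for Kcnd2 they lie between 321 and 371 CPM, above the highest WT culture at 186 CPM.

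Of 38 listed partner genes 32 were tested, of which 11 rose (34.4%, against 19.7% of all genes) and 10 fell (31.2%, against 19.8%). All 4 listed genes of the sodium leak channel complex were called higher: Nalcn, its pore (log2 fold change 0.70, SE 0.09), Unc79 (0.71), Unc80 (1.17, SE 0.11) and Fam155a (0.36). Dpp10 (1.21, SE 0.10) and Dpp6 (0.25), which bind Kv4 channels, rose, as did Kcnd2 and Kcnd3. Of the other Kv4 partners, Kcnip2 was called lower (-0.45, SE 0.12, adjusted p = 0.009), and Kcnip1, Kcnip3 and Kcnip4 were not called. Kcnip2 lost its call without WT culture 2 (adjusted p = 0.0537). Ank3 fell from 193 to 94.7 CPM on average (-1.03, SE 0.09), and so did Scn3b (-1.46, SE 0.14), the sodium channel modulator Fgf13 (-1.15, SE 0.13), the pacemaker channel Hcn4 (-2.20, SE 0.31) and Cacng2, an auxiliary subunit of glutamate receptors (-2.48, SE 0.27). Without 1 of the cultures the call was lost for Fam155a (cKO culture 2, adjusted p = 0.0648) and for Dpp6 (WT culture 2 or 3 or cKO culture 1 or 2, adjusted p up to 0.194). For these partners the adjusted p lay between 6.42e-07 (Dpp10) and 0.0282 (Dpp6). Rest and Rcor1 were not called (adjusted p 0.39 and 0.289).

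Some zeros in the cultures carry no information. The table lists 10809 genes whose whole span is covered by other listed genes, and 10806 of them were at 0 counts in all cultures. Among the channel genes these were Kcna3, Kcne3, Kcne4, Kcnj13 and Kcnmb1, as were the markers Tubb3, Nefl and Gfap. Kcna7, Kcne1 and Kcnj8 were at 0 without such cover.

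In the cortex the genotypes were compared by class for channel genes with at least 200 UMIs in it, as the log2 ratio of cKO over WT CPM with an exact 95% interval, and a gene is described where the ratio was at least 0.5 in size and its interval left out 0. In AP-like cells 5 of 26 genes were higher in the cKO embryo (2.12% of 10374 genes) and 2 were lower (1.16%). The largest difference was that of Kcnip1, a calcium-binding Kv4 partner, at 66.9 CPM (62.5 to 71.5) in the WT and 26.9 CPM (24.6 to 29.4) in the cKO embryo, a log2 ratio of -1.31 (-1.47 to -1.15). It was lower in each of the 3 AP-like clusters, and its ratio lay between -1.44 and -1.25 over 6 alternatives. Kcnj10 was lower too, at 35.7 and 24.3 CPM (-0.56, -0.75 to -0.37, and -0.55 to -0.49 over the alternatives). Of the higher genes, Kcnip4 read 39.4 and 59.7 CPM (0.60, 0.45 to 0.75). These 3 genes read at most 13.2 CPM in red-blood-cell-like cells, where the red blood cell markers lower the CPM of every other gene.

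For 3 genes that were higher in AP-like cells of the cKO embryo, red-blood-cell-like cells also held UMIs. Kcnb2 read 43.6 and 73.8 CPM in AP-like cells and 22.3 CPM (7.23 to 52.0) and 110.1 CPM (71.2 to 162) in red-blood-cell-like cells of the WT and cKO embryos. Kcnq3 read 47.8 and 74.0 CPM in AP-like cells, against 49.0 CPM (24.5 to 87.7) and 119 CPM (78.3 to 173) in red-blood-cell-like cells. Scn3a read 8.03 and 12.1 CPM in AP-like cells, against 0 of 224480 UMIs, which allows up to 13.4 CPM, and 35.2 CPM (15.2 to 69.4). In CPM the AP-like level of the cKO embryo was thus under the red-blood-cell-like level for each of the 3 genes, while that of Kcnb2 in the WT embryo was above it. Red blood cell markers took 780947 (WT) and 745434 CPM (cKO) of the red-blood-cell-like class, which lowers its CPM for these genes. Red-blood-cell-like cells held fewer UMIs, 4157 and 4130.2 per cell on average against 13494 and 14504 in AP-like cells. Per cell, Kcnb2 had 0.588 and 1.07 UMIs in AP-like and 0.0926 and 0.455 UMIs in red-blood-cell-like cells, and Kcnq3 had 0.646 and 1.07 against 0.204 and 0.491 UMIs. Scn3a had 0.108 and 0.176 against 0 and 0.145 UMIs, so its per-cell values in the cKO embryo were close. With clusters drawn at resolution 0.4 the log2 ratios in AP-like cells were 0.22 for Kcnb2, 0.19 for Kcnq3 and 0.01 for Scn3a. The migrating-neuron markers within AP-like cells summed to 332 CPM in the WT and 430.3 CPM in the cKO embryo, and the red blood cell markers to 88.8 and 289 CPM. The part of other cells' RNA in these values was not tested.

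Kcnc2 and Kcnq5 were lower in the cKO embryo in several classes. Kcnc2 read 34.0 and 15.1 CPM in IP-like cells (log2 ratio -1.17, -1.45 to -0.90), 70.2 and 33.3 CPM in migrating-neuron-like cells (-1.08, -1.20 to -0.95), 22.0 and 11.3 CPM in the cluster led by Cdh12 (-0.96, -1.31 to -0.62) and 7.27 and 3.99 CPM in immature-neuron-like cells (-0.87, -1.21 to -0.53). In GE-like cells, which Emx1-Cre does not target, Kcnc2 read 208 and 166 CPM (-0.32, -0.40 to -0.24), short of the size rule. Kcnq5, another M-current gene, read 365 and 118 CPM in Cajal-Retzius-like cells (-1.63, -1.92 to -1.34), 211 and 118 CPM in the cluster led by Cdh12 (-0.84, -0.95 to -0.73) and 303 and 197 CPM in immature-neuron-like cells (-0.62, -0.67 to -0.57). Within the last class Kcnq5 read 459 and 299.8 CPM in the cluster led by Ldb2 and Kctd8 and 206 and 102 CPM in the one led by Slit3, but 116 and 137 CPM in the one led by Hs3st4 and Zfpm2. In AP-like cells it read 36.9 and 36.0 CPM. With called doublets removed, the immature-neuron-like ratios shrank to -0.46 for Kcnc2 and -0.36 for Kcnq5.

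The remaining comparisons are given by class. In IP-like cells 2 of 30 genes were higher (1.58% of all genes) and 2 lower (0.952%): beside Kcnc2, these were Kcnip1 at 57.6 and 37.7 CPM (-0.61), Cacna1e at 9.10 and 15.3 CPM (0.75) and Kcnip4 at 26.1 and 39.3 CPM (0.59), of which Cacna1e and Kcnip4 came out at -0.030 and -0.071 at resolution 0.4. In migrating-neuron-like cells 5 of 42 were higher (3.15%) and 2 lower (1.32%). The 5 were Kcnh3, Kcnmb2, Kcnma1, Scn2a and Kcng1 (log2 ratio 0.50 to 1.29), the 2 were Kcnc2 and Kcnj11 (-0.50), and of the 5 higher genes 0 met the rule without the cluster led by Tafa1 and Tfap2d, which held 94 WT and 389 cKO cells. Without it Kcnmb2 was at 0.10, Scn2a at -0.17 and Kcnh3, then under 200 UMIs, at 0.96, Kcnma1 was at 0.499 (0.28 to 0.71), just under the size rule, and Kcng1 at 0.39 (0.14 to 0.65), while Kcnc2 was still lower at -0.87. In the cluster led by Cdh12, 3 of 38 were higher (1.04%), Kcnh5 at 29.2 and 53.8 CPM (0.88), Kcng1 (0.70) and Kcnh3 (0.58), and 3 were lower (1.38%), with Kcnip4 (-0.63) beside Kcnq5 and Kcnc2. In immature-neuron-like cells 1 of 51 was higher (1.9%), Kcnk12 at 7.69 and 11.9 CPM (0.63), and 2 were lower (1.18%). In GE-like cells 1 of 39 was higher (0.987%), Kcnip4 at 7.59 and 16.7 CPM (1.14), and 0 were lower (0.733%). In Cajal-Retzius-like cells 2 of 14 were higher (2.38%), Kcnd2 at 79.8 and 139 CPM (0.80) and Kcnip1 at 125 and 202 CPM (0.69), and 2 were lower (3.08%), Kcnip4 (-1.14) and Kcnq5.

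**Figure D5:**
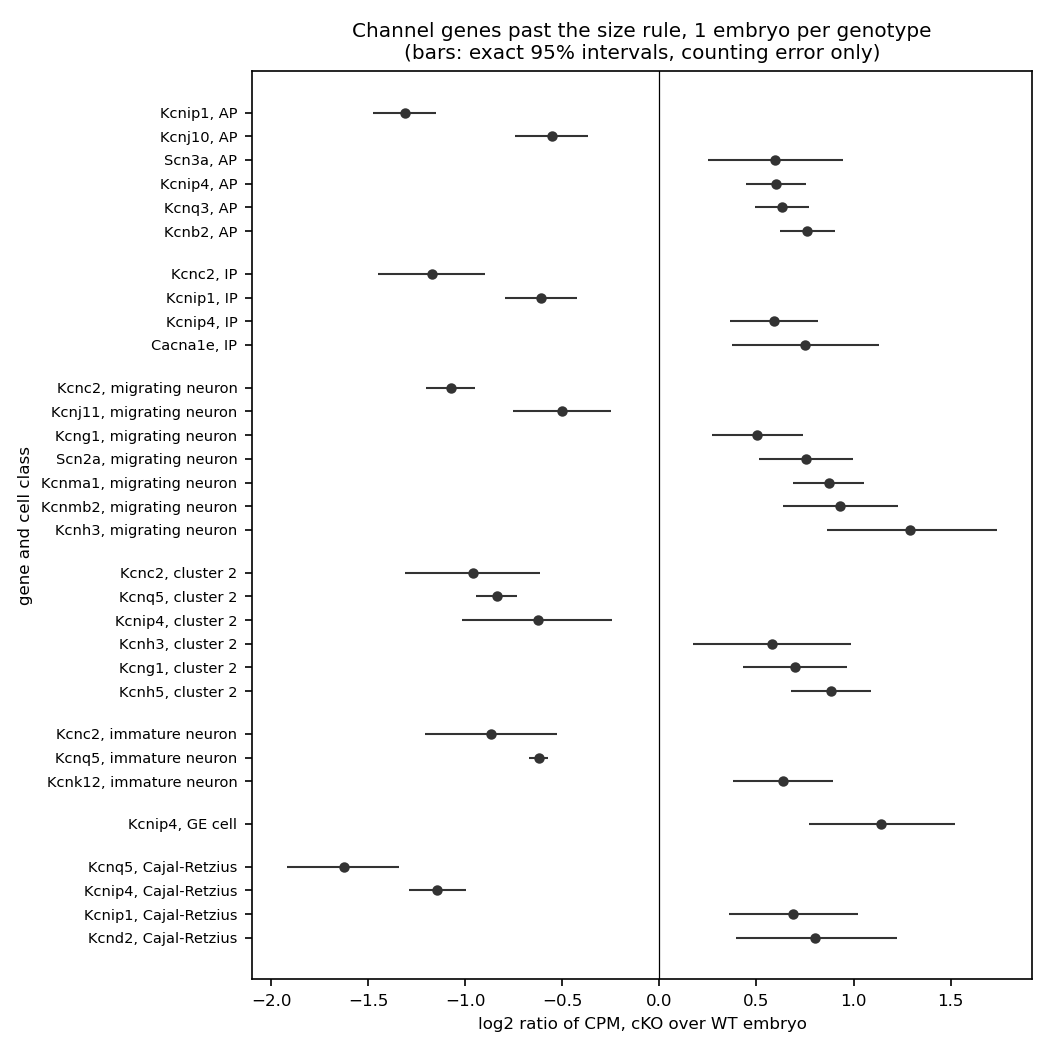
Log2 ratio of cKO over WT CPM, 1 embryo per genotype, for channel genes and classes past the size rule, with exact 95% intervals for counting error only. Kcnc2 lies left of 0 in 4 classes and Kcnq5 in 3, while Kcnip4 lies left of 0 in Cajal-Retzius-like cells and right of 0 in GE-like and AP-like cells.

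Genes called in the cultures were set beside the same genes in AP-like cells. Of the 36 genes called in the cultures, 18 had at least 200 UMIs in AP-like cells, and 4 of these were past the size rule there, 1 in the same direction (Kcnq3) and 3 in the opposite one (Kcnb2, Scn3a and Kcnj10). The AP-like ratios of Kcnq3, Kcnb2 and Scn3a carry the limits given above and were 0.19, 0.22 and 0.01 at resolution 0.4. Intervals of the AP-like ratio left out 0 for 10 of the 18 genes, 5 in the direction of the cultures and 5 against it. Like counts over all genes called in the cultures were not made, so these counts cannot be read as particular to channel genes. The 5 in the same direction were Kcnq3, Scn8a (log2 ratio 0.49, 0.26 to 0.73, at 17.5 and 24.7 CPM), Cacna1d (0.47, 0.19 to 0.76), Cacna1c (0.27, 0.10 to 0.45) and Kcnn3 (0.28, 0.05 to 0.51), all higher in cKO. In the cultures Kcnn3 lost its call without a filter on low counts, without WT culture 2 and without any of the cKO cultures (adjusted p up to 0.121). The 5 against it were Kcnb2, Scn3a, Kcnj10, Cacna1e (0.50, 0.13 to 0.87) and Kcnk10 (-0.11, -0.19 to -0.03). Kcnk2, which fell by 1.13 on the log2 scale in the cultures, read 47.8 and 47.4 CPM in AP-like cells, and Kcnd2, which rose by 1.02, read 161 and 169.7 CPM. Kcnip1, the gene with the largest difference in AP-like cells, read 25.2 and 27.8 CPM on average in the WT and cKO cultures and was not called (adjusted p = 0.297). Kcna2, at 373 CPM on average in the WT cultures, was almost absent from AP-like cells, at 0.701 and 1.26 CPM. The libraries were made in different ways, so the values stand side by side without a test of the difference.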

How the data were processed

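RNA-seq was done on 3 WT and 3 cKO NPC cultures and scRNA-seq (10x 3′) on the dorsal cortex of 1 WT and 1 cKO embryo. The deposited counts were raw read counts per gene for the cultures, aligned by the authors with HISAT2 to mm10, and UMI counts per gene and barcode from Cell Ranger 7.0.0 for the cortex. The sources used here do not give the program, strand setting and annotation of the read counting, or whether intronic reads were counted. All 48440 listed gene lengths equal the whole span of the gene, and 42164 spans are the same in GENCODE M21 (85 of the 111 channel genes). The 3 LACE-seq samples were not analysed here. The channel genes, partner genes, marker lists and tests were chosen with earlier results of these data known.

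Cultures were compared with edgeR 4.0.16 (R 4.3.3; filterByExpr, TMM scaling, quasi-likelihood test, 2-sided) over all genes with Benjamini-Hochberg adjustment. A single gene in 3 against 3 cultures could not go below p = 0.1 in an exact permutation test. Alternatives were RLE and upper-quartile scaling, no filter, a minimum of 1 CPM, DESeq2 1.42.0, limma 3.58.1 (voom), a replicate block, sex as covariate and leaving out each culture. Named were channel genes called at 2-fold or more with a mean of at least 1 CPM, other called members of the subfamilies described, partner genes called at 2-fold or more, and, in the cortex, genes with at least 20 CPM in both embryos in a class, highest in a class or past the size rule between embryos. Others were named after their values were seen.

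The cortex libraries held 8289 (WT) and 9659 (cKO) barcodes, more than the methods of the study state as recovered cells. Barcodes with 200 or more genes and no more than 10% of UMIs from mitochondrial genes were clustered with Seurat 5.3.0 (2000 variable genes without channel, partner, sex-linked and mitochondrial genes, 30 components, resolution 0.8) and named where at least 3 markers were raised. Scrublet in scanpy 1.11.5 called 298 and 451 doublets, which were kept and removed in an alternative. The other alternatives were resolutions 0.4 and 1.2, channel genes among those used for clustering, a stricter filter of 1000 genes and 5% mitochondrial UMIs, and scaling by the median ratio. The background shares between classes were taken over the genes other than the channel genes, a denominator chosen after the values were seen. Leaving out the uneven migrating-neuron-like cluster, or the AP-like cluster of low UMI count, was added after seeing the data. The scripts were tested on simulated data. Some genes and sequences are not reported here and are left out of the plots, while counts over the channel genes include them.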

Additional observations from a re-analysis of the deposited data

Results flagged for a closer look

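In all, 5 channel genes had values of opposite sign in different cells or experiments, counting only culture calls and cortex ratios past the size rule. The difference itself was not tested for any of them. The log2 ratio of Kcnip1, cKO over WT embryo, was -1.31 in AP-like and -0.61 in IP-like cells and 0.69 in Cajal-Retzius-like cells. That of Kcnip4 was 0.60 in AP-like, 0.59 in IP-like and 1.14 in GE-like cells, against -0.63 in the cluster led by Cdh12 and -1.14 in Cajal-Retzius-like cells. The IP-like ratio of Kcnip4 was -0.071 at resolution 0.4 and also turned negative with the stricter cell filter. Kcnj10 rose by 0.31 on the log2 scale in the cKO cultures and had a ratio of -0.56 in AP-like cells. Kcnb2 fell in the cultures (-2.51) and had a ratio of 0.76 in AP-like cells. Scn3a likewise fell in the cultures (-1.17) and had a ratio of 0.59 in AP-like cells. In the cKO embryo the AP-like levels of Kcnb2 and Scn3a were, in CPM, below those of red-blood-cell-like cells, and at resolution 0.4 their AP-like ratios were 0.22 and 0.01. With 1 embryo per genotype, litter mates' own differences and genotype cannot be told apart.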

How the results depend on the processing

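In the cultures the number of channel genes that rose was 16 to 17 and that fell was 18 to 22 over the alternatives, and 12 to 17 and 14 to 22 when a culture was left out. For partner genes these were 9 to 12 and 9 to 11, and 8 to 11 and 7 to 11. Of the 36 calls 34 were kept without a filter, 34 at a minimum of 1 CPM, 34 with DESeq2, 35 with limma-voom, 35 with sex as covariate and 27 to 35 without 1 culture. The deviations of same-numbered cultures from their genotype means correlated at r = 0.264, -0.047 and 0.116. With 3 cultures per genotype these values cannot decide whether the numbers pair the cultures. A replicate block kept 35 of the calls and raised the calls over all genes from 5701 to 6405.

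In the cortex, the log2 ratio of the summed channel level in immature-neuron-like over AP-like cells (WT and cKO) was 1.52 and 1.505 at resolution 0.4, 1.93 and 1.86 at resolution 1.2, 2.01 and 1.99 with doublets removed, 1.79 and 1.65 with the stricter cell filter, and 1.80 in the WT with channel genes used for clustering. At resolution 0.4, 2 genes were higher and 4 lower in AP-like cells, 1 and 1 in IP-like cells, and 3 were higher in immature-neuron-like cells. At resolution 1.2, 3 were higher in immature-neuron-like and 1 lower in migrating-neuron-like cells. With doublets removed, 3 were higher and 1 lower in AP-like cells, 1 higher in IP-like, 1 lower in migrating-neuron-like, and 3 higher and 0 lower in immature-neuron-like cells. With the stricter filter, 0 were higher and 1 lower in IP-like cells and 3 higher in immature-neuron-like cells. Scaling by the median ratio left 1 lower in migrating-neuron-like cells. Leaving out the uneven cluster left 0 higher and 1 lower there and put Scn2a at -0.17. The ratio in IP-like cells reversed at resolution 0.4 for Cacna1e (-0.030) and Kcnip4 (-0.071), and for Kcnip4 with the stricter filter (-0.036). The cause of these shifts was not tested. A single embryo per genotype limits each genotype value in the cortex to those animals, and genes under 200 UMIs in a class were not compared there.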

Other observations

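The partner gene Rest read 4.56 CPM in the WT and 7.76 CPM in the cKO embryo in migrating-neuron-like cells (log2 ratio of cKO over WT 0.77, 0.41 to 1.13). Without the cluster uneven between the embryos, a setting added after seeing the data, it read 4.32 and 4.29 CPM (-0.01, -0.45 to 0.43).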
